A study of Mus musculus with 9 samples.

Results

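The mitochondrial respiratory chain and ATP synthase genes of mouse duodenum were taken from both genomes. Members were all protein-coding genes with symbols of complexes I to V (mt-Nd, mt-Co, *mt-Cytb*, mt-Atp, Nduf, *Sdha* to *Sdhd* with Sdhaf, Uqcr, *Cyc1*, Cox4 to Cox8 and Atp5) and more than 100 reads over the 9 libraries. This gave 108 of the 48709 genes counted, of which 15002 had more than 100 reads. The mitochondrial genome encodes 13 of the members and the nucleus 95. *Cox8b*, with 44 reads in all, and *Cox7b2* and *Cox8c*, with 0 reads each, had the same kind of symbol but fell under the read minimum, and 11 further genes with such symbols were not protein-coding and were left out.

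RNA was from the duodenum of 10-week-old male C57BL/6J mice, 6 h after oral 1,25D3 and ZK, 1,25D3 alone, or vehicle (sunflower oil). 1,25D3 is the hormonal form of vitamin D and ZK (ZK168281) is an antagonist of its receptor, VDR. Each treatment had 3 libraries, numbered 1 to 3 on their labels, from mice without any genetic change named in the sources. In the count table, headers 4 to 6 are the libraries numbered 2, headers 7 to 9 those numbered 3 and headers 1 to 3 those numbered 1, and each set starts with the library labelled vehicle, goes on with that labelled 1,25D3 and ends with that labelled 1,25D3 and ZK. The 3 values of a set are given in this header order.

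The respiratory chain passes electrons from NADH and succinate to oxygen through complexes I to IV and pumps protons across the inner mitochondrial membrane, and complex V uses the proton gradient to make ATP. Complexes I, III, IV and V are built from subunits of both genomes, whereas all subunits of complex II are nuclear. Mitochondrial subunits are transcribed inside the organelle as long polycistronic RNAs from each strand, most of them from a single promoter region, so their levels are set apart from those of nuclear genes. Absorptive enterocytes, which take up nutrients and calcium in the duodenum, are rich in mitochondria.

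Treatment labels and header sets were compared separately because the VDR target *Cyp24a1*, which encodes the main 1,25D3 catabolic enzyme, did not follow the treatment labels. It was at 7537, 6425 and 7633 TMM CPM (CPM after normalization by the trimmed mean of M values) in headers 4 to 6, at 2.47, 9.13 and 4.05 in headers 7 to 9 and at 2.70, 2.50 and 6.14 in headers 1 to 3. *Cyp24a1* was thus high in every library of headers 4 to 6, the library labelled vehicle included. No library was moved to another group. Totals were 22561400 to 41207455 counts per library. The 12 enterocyte markers were all detected in every set, with sums of 52744 to 58002 TMM CPM in headers 4 to 6, 44390 to 64594 in headers 7 to 9 and 61880 to 63869 in headers 1 to 3.

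Libraries also differed in how alike they were. Over 3090 genes with more than 1000 reads in every library, the SD of the log2 ratio was 0.0545 to 0.0949 for the 6 pairs among headers 1, 2, 3 and 8, 0.0717 between headers 4 and 6 and 0.0864 between headers 7 and 9. It was 0.167 to 0.187 between header 5 and either of headers 4 and 6, and 0.339 to 0.501 for the other 26 pairs. Header 8, the library labelled 1,25D3 with number 3, therefore lay among headers 1 to 3 and apart from headers 7 and 9. The mean chi-square per gene over all tested genes was 1.81 to 5.44 among headers 1, 2, 3 and 8, where sampling noise alone gives about 1. Its median over genes was 0.645 to 0.994, where sampling noise gives 0.455. No pair was counted as 1 sample, but these values cannot tell separate mice from repeated libraries of the same RNA. The study describes separate mice for each treatment, which the labels do not state, and p-values measure the spread between these libraries. Results for headers 7 to 9 are given with and without header 8.

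Sequence identity limited which mitochondrial subunits could be measured. The authors kept reads of 50 bases that aligned to a single place. Of the 50-base windows of each member transcript, the share found letter for letter in a transcript of another annotated gene was 98.0% to 100% for *mt-Co2*, *mt-Co3*, *mt-Atp6*, *mt-Nd3* and *mt-Nd4l*. The copy sharing most windows of each was a nuclear pseudogene on chromosome 1, and *mt-Co2* shared 35.3% of its windows also with *Gm13341* on chromosome 2. These 5 genes had 677 to 7883 reads over the 9 libraries, or 3.92 to 104 TMM CPM per kb of exon. The other 8 mitochondrial members, with 0% to 62.2% of windows shared, had 9788 to 5376919 reads, or 75.2 to 12996 TMM CPM per kb. The levels of these 5 genes are those of the few reads that were kept, and were not compared with the levels of other genes. The first 60 bases of *mt-Co2* (chrM:7013-7072, plus strand), shown because the pseudogene *Gm28661* on chromosome 1 holds the same 60 letters, are given with a stretch of *mt-Co1* (chrM:6381-6440, plus strand) and the matching stretch of the pseudogene *Gm29216*, also on chromosome 1, where capitals mark the 6 letters that differ between the pair. The sequences are from GENCODE M21 transcripts of GRCm38.
mt-Co2: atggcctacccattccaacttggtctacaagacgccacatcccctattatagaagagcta
mt-Co1: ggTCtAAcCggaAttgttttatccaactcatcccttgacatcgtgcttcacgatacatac
Gm29216: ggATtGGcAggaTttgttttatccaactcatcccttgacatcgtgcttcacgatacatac
All 681 bases of *Gm28661* that align with *mt-Co2* are identical to it. Of 492 aligned bases of *Gm29216* and *mt-Co1*, 98.8% are identical and the differing letters lie at the end shown. *Gm28661* had 41 reads in all, and *Gm29216* had 60. The copies on chromosome 2 had more, with 2315 reads for *Gm13341*, against 677 for *mt-Co2* itself, and 8443 for *Gm13340*, which shares 27.5% of the windows of *mt-Co1*. Among nuclear members, 40 of 95 shared no window with another gene and 7 shared over 25%, with *Sdhaf1* (69.0%) and *Ndufaf2* (64.1%) the highest.

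**Figure D1:**
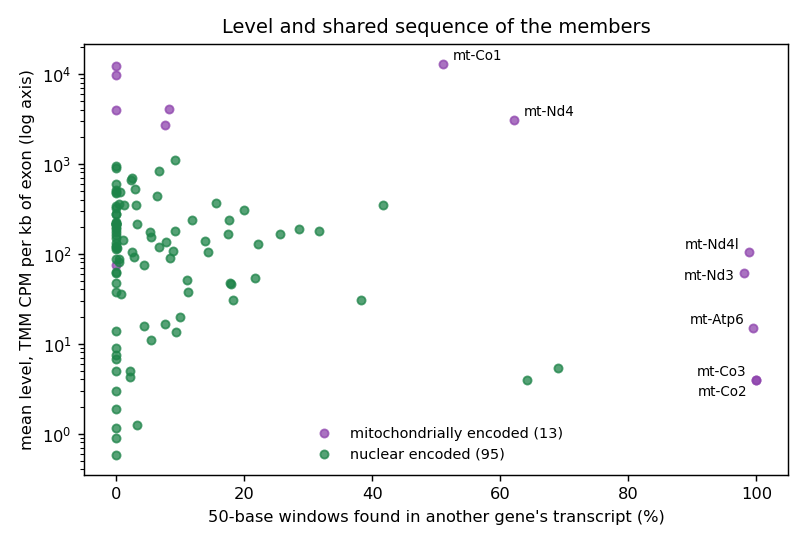
Mean level over the 9 libraries (TMM CPM per kb of exon, log axis) against the percent of 50-base windows found in another gene's transcript, for 13 mitochondrially and 95 nuclear encoded members. The 5 mitochondrial genes with 98.0% or more of their windows shared lie at or below 104 TMM CPM per kb, and the nuclear members lie between 0.575 and 1088.

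Of the 8 mitochondrial members with at most 62.2% of windows shared, all but *mt-Nd6* stood above every nuclear member per kilobase. *mt-Co1*, the catalytic subunit of complex IV, averaged 12996 TMM CPM per kb, *mt-Cytb* of complex III 12364 and *mt-Nd1* of complex I 9692. The highest nuclear members per kb were all of complex IV, namely *Cox6a1* (1088), *Cox6b1* (934) and *Cox8a* (895 TMM CPM per kb). The length used counts every annotated exon of a gene, so it can exceed that of the main transcript. By reads alone *Atp5b* was the highest nuclear member, with 795459 in all against 213455 for *Cox6a1*. The median nuclear member was at 130. *mt-Nd6*, the only member transcribed from the other strand, was at 75.2 TMM CPM per kb with no shared window. No source used here gives the strand setting of the counting, so reads of *mt-Nd6* cannot be set apart from antisense reads of its region, and *mt-Atp8* and *mt-Atp6* overlap, from base 7927 to base 7969.

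Mitochondrially encoded transcripts were lower in headers 4 to 6 than in headers 1 to 3. Their share of all counts was 2.90%, 3.32% and 3.09% in headers 4 to 6, 3.94%, 7.63% and 4.13% in headers 7 to 9 and 8.57%, 7.68% and 8.82% in headers 1 to 3. Headers 4, 5, 6, 7 and 9 were thus all below headers 1, 2, 3 and 8. With edgeR, 12 of the 13 were called lower (adjusted p under 0.05 and log2 fold change beyond 0.58), and the other, *mt-Nd3*, had a log2 fold change of -1.26 ± 0.56 (SE) and an adjusted p of 0.104. Of all 15002 genes tested, 8.25% were called lower and 12.2% higher in this comparison. The median log2 fold change of the 13 was -1.71 (range -2.26 to -1.26), against 0.03 over all genes. In bulk RNA, fewer cells of a type and less RNA per cell cannot be told apart.

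The 7 complex I subunits of the mitochondrial genome, which belong to its proton-pumping membrane arm, were all lower in headers 4 to 6 than in headers 1 to 3. All but *mt-Nd3* were called. *mt-Nd1* was at 4020, 4688 and 4411 TMM CPM in headers 4 to 6, at 5126, 13922 and 5363 in headers 7 to 9 and at 15747, 13922 and 16281 in headers 1 to 3. Its log2 fold change in headers 4 to 6 over headers 1 to 3 was -1.81 ± 0.35 (SE, edgeR adjusted p = 0.00357). No library of headers 4 to 6 reached the lowest of headers 1 to 3, and header 8 equalled header 2. *mt-Nd2* (-1.71 ± 0.32), *mt-Nd4* (-1.75 ± 0.32) and *mt-Nd5* (-1.68 ± 0.30) gave edgeR adjusted p of 0.00299, 0.00239 and 0.00223. *mt-Nd5* was at 2328, 2772 and 2291 TMM CPM in headers 4 to 6 and at 8060, 7407 and 8206 in headers 1 to 3. The fold changes of these 4 subunits differed by less than the SE of any of them. *mt-Nd6* was at 17.8, 22.3 and 15.5 TMM CPM in headers 4 to 6, at 15.6, 56.8 and 15.8 in headers 7 to 9 and at 74.6, 37.6 and 95.2 in headers 1 to 3 (log2 fold change -1.89 ± 0.51, adjusted p = 0.0156). Its spread within headers 1 to 3 was wide, with header 2 the lowest, but the sets 4 to 6 and 1 to 3 did not overlap. *mt-Nd4l* (-1.78 ± 0.49, adjusted p = 0.0174), with 98.8% of windows shared, fell as well. *mt-Nd3*, also nearly all shared, was at 7.96, 17.7 and 16.5 TMM CPM in headers 4 to 6, at 6.19, 33.3 and 6.83 in headers 7 to 9 and at 36.8, 31.8 and 33.2 in headers 1 to 3. Header 4 was apart from headers 5 and 6 for this gene, and all 3 were below headers 1 to 3.

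In complexes III, IV and V all mitochondrial members fell. *mt-Cytb*, the only mitochondrial subunit of complex III, was at 6427, 7194 and 7130 TMM CPM in headers 4 to 6, at 8011, 21374 and 8449 in headers 7 to 9 and at 23608, 20912 and 24197 in headers 1 to 3. Its log2 fold change in headers 4 to 6 over headers 1 to 3 was -1.73 ± 0.35 (adjusted p = 0.00427). *mt-Co1* was at 10904, 11696 and 11437 TMM CPM in headers 4 to 6, at 12980, 27759 and 13471 in headers 7 to 9 and at 31761, 27843 and 32852 in headers 1 to 3. It fell by 1.44 on the log2 scale (SE 0.29, adjusted p = 0.0042), and header 8 lay just under the lowest of headers 1 to 3. *mt-Co2*, which holds the first copper centre of complex IV, was at 0.866, 1.12 and 1.23 TMM CPM in headers 4 to 6, at 1.06, 3.22 and 1.01 in headers 7 to 9 and at 5.65, 4.06 and 5.93 in headers 1 to 3. It had the largest fold change of the 108 members (-2.26 ± 0.39, adjusted p = 0.00194), on 677 reads in all. *mt-Co3* (-1.53 ± 0.34, adjusted p = 0.00681) and *mt-Atp6* (-1.49 ± 0.48, adjusted p = 0.0334), a proton channel subunit of complex V, fell on similarly few kept reads. *mt-Atp8*, the other mitochondrial subunit of complex V, had 213550 reads and no shared window. It was at 441, 502 and 492 TMM CPM in headers 4 to 6, at 410, 1258 and 524 in headers 7 to 9 and at 1029, 1213 and 1316 in headers 1 to 3 (-1.31 ± 0.35, adjusted p = 0.0153). The 5 genes with nearly all windows shared had a median log2 fold change of -1.53, and the 8 others one of -1.72, all 8 of them called.

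**Figure D2:**
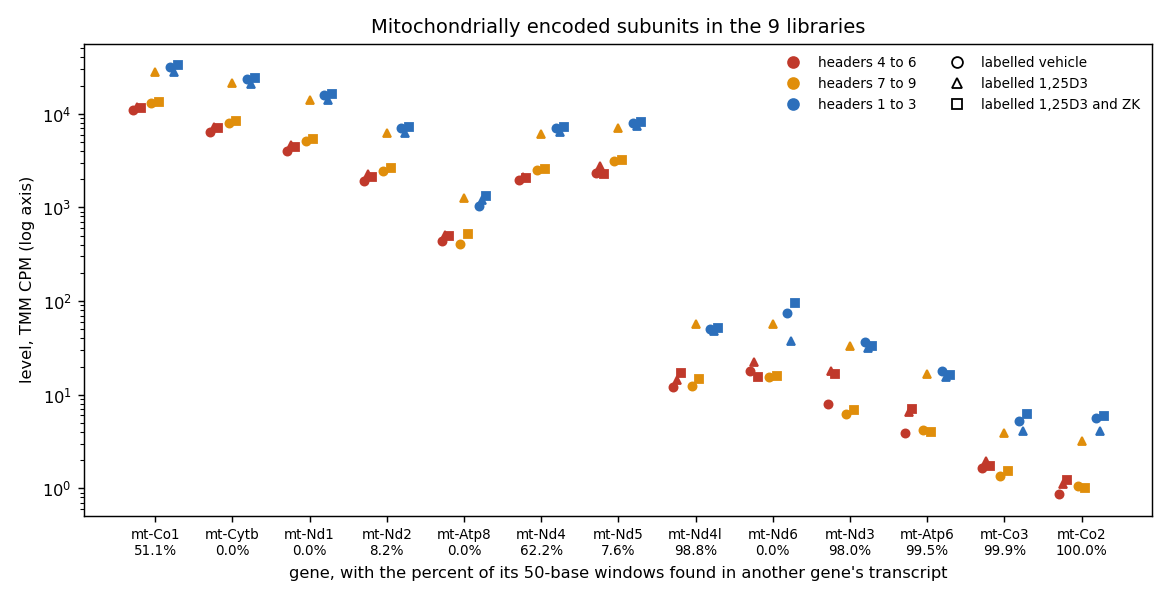
Level (TMM CPM, log axis) of the 13 mitochondrially encoded members in each library, ordered by mean level per kb, with headers 4 to 6 (red), 7 to 9 (orange) and 1 to 3 (blue) side by side and the treatment label as the marker shape; the percent under each name is the share of its 50-base windows found in another gene. For *mt-Co1* the 3 red points lie at 10904 to 11696 and the 3 blue points at 27843 to 32852, and the orange triangle (header 8, 27759) lies beside the blue points.

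The mitochondrial ribosomal RNAs did not pass the test. *mt-Rnr2* was at 1007, 1218 and 1110 TMM CPM in headers 4 to 6, at 587, 1792 and 612 in headers 7 to 9 and at 1805, 1765 and 1848 in headers 1 to 3. Its log2 fold change of -0.70 ± 0.37 in headers 4 to 6 over headers 1 to 3 did not pass (edgeR adjusted p = 0.16), nor did that of *mt-Rnr1* (-0.49 ± 0.30, adjusted p = 0.226). The libraries were made from polyadenylated RNA, and whether the ribosomal and the messenger RNAs changed to different extents was not tested.

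Nuclear encoded members shifted less. Their share of all counts was 2.82%, 2.88% and 2.92% in headers 4 to 6, 2.61%, 3.26% and 2.73% in headers 7 to 9 and 3.08%, 3.19% and 3.13% in headers 1 to 3. In headers 4 to 6 over headers 1 to 3, 6 of 95 were called lower and 0 higher, and the median log2 fold change was -0.29 (range -1.49 to 0.72). With adjusted p under 0.05 and no minimum fold, 22 were lower and 1 higher, where 18.7% of all genes were lower and 19.6% higher. Both nuclear counts of lower calls, 6 and 22 of 95, were near these shares of all genes, and so are no result about the nuclear members. In this looser count the complexes gave 10 of 36 lower in complex I, 2 of 4 in complex II, 4 of 9 in complex III, 2 of 17 in complex IV and 3 of 17 in complex V, with 1 lower and 1 higher of 12 assembly factors. The sets did not overlap for 72 of the 95 nuclear members (75.8%), and 69 of the 95 (72.6%) were lower in headers 4 to 6 without overlap. Of all genes tested, 61.8% did not overlap and 30.0% were lower without overlap. Most of these nuclear members did not pass the test.

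Summed over all 95 nuclear members, levels were 27279, 27235 and 28329 TMM CPM in headers 4 to 6, 22912, 35882 and 23980 in headers 7 to 9 and 33973, 34944 and 34602 in headers 1 to 3. Summed over the 13 mitochondrial members, they were 28031, 31305 and 29978 in headers 4 to 6, 34653, 83997 and 36197 in headers 7 to 9 and 94480, 84050 and 97552 in headers 1 to 3. Both sums were lower in headers 4 to 6 than in headers 1 to 3, and the mitochondrial sum by the greater factor. Reads of mitochondrial over reads of nuclear members gave a ratio of 1.03, 1.15 and 1.06 in headers 4 to 6 (mean 1.08 ± 0.063, SD, n = 3), of 1.51, 2.34 and 1.51 in headers 7 to 9 (1.79 ± 0.48) and of 2.78, 2.41 and 2.82 in headers 1 to 3 (2.67 ± 0.23). The difference in mean log2 ratio was -1.31 for headers 4 to 6 against headers 1 to 3, -0.61 for headers 7 to 9 against headers 1 to 3 and -0.70 for headers 4 to 6 against headers 7 to 9. The ranges of headers 7 to 9 and headers 1 to 3 met most closely at header 8 (2.34) and header 2 (2.41). The 3 sets did not overlap, and no test was run on this score. When the medians of log2 CPM over the members were used in place of the sums, the difference for headers 4 to 6 against headers 1 to 3 was -0.92.

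**Figure D3:**
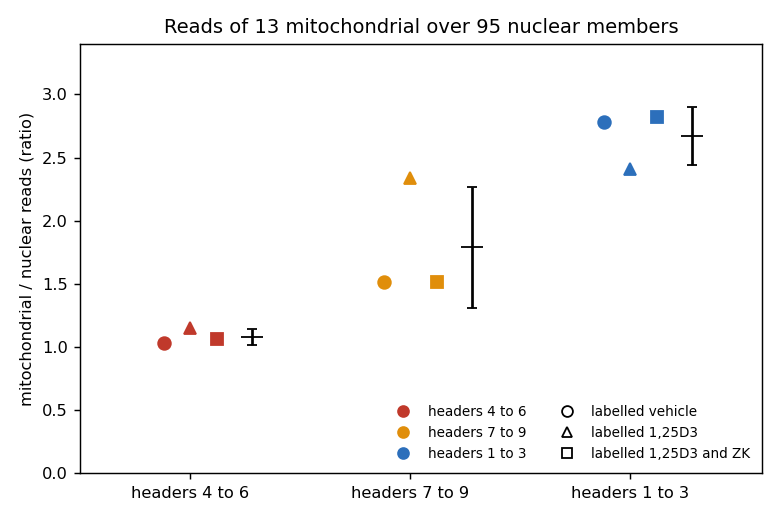
Ratio of reads of the 13 mitochondrial to reads of the 95 nuclear members in each library, by header set; the bars give the set mean and SD (n = 3). Headers 4 to 6 lie at 1.03 to 1.15, headers 7 and 9 at 1.51, header 8 at 2.34 and headers 1 to 3 at 2.41 to 2.82.

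Within complexes the ratio moved alike. In complex I it was 2.01 ± 0.16 in headers 4 to 6, 3.45 ± 0.91 in headers 7 to 9 and 5.30 ± 0.48 in headers 1 to 3 (SD, n = 3 each). In complex III it was 1.73 ± 0.12 in headers 4 to 6, 3.05 ± 1.0 in headers 7 to 9 and 4.67 ± 0.39 in headers 1 to 3. In complex IV it was 1.95 ± 0.15 in headers 4 to 6, 3.36 ± 0.44 in headers 7 to 9 and 4.53 ± 0.44 in headers 1 to 3. In each of these complexes headers 4 to 6 held the 3 lowest ratios. In complex V, where *mt-Atp6* is nearly uncounted, it was 0.0478 ± 0.0028 in headers 4 to 6, 0.0659 ± 0.026 in headers 7 to 9 and 0.0924 ± 0.011 in headers 1 to 3, and header 7 (0.0458) was within the range of headers 4 to 6.

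**Figure D4:**
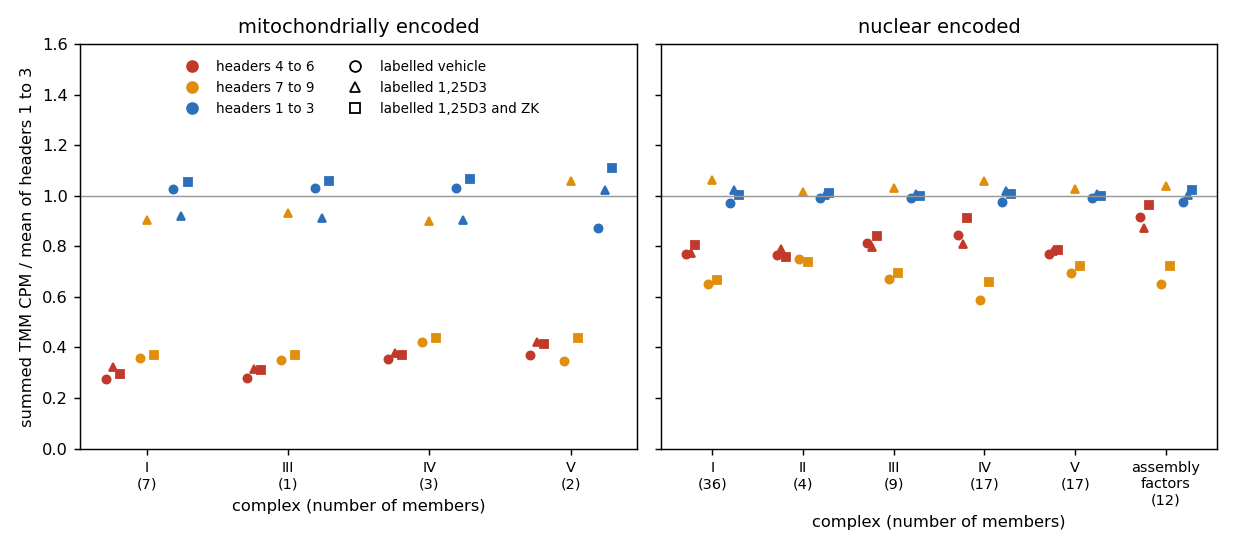
Summed TMM CPM of the members of each complex in each library, divided by the mean of headers 1 to 3 (grey line at 1), for mitochondrially encoded (left) and nuclear encoded members (right); colours give the header set and shapes the treatment label. Mitochondrial sums of headers 4 to 6, 7 and 9 lie well under the line, nuclear sums lie nearer to it, with headers 7 and 9 (complex IV 3993 and 4504, against a mean of 6819 in headers 1 to 3) lowest in each of the 5 complexes and among the assembly factors.

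Of the nuclear members, those called lower in headers 4 to 6 were of different complexes. *Cox6a2*, the striated-muscle isoform of a complex IV subunit, was at 0.513, 0.548 and 0.472 TMM CPM in headers 4 to 6, at 0.327, 1.12 and 0.286 in headers 7 to 9 and at 1.28, 1.56 and 1.46 in headers 1 to 3 (log2 fold change -1.49 ± 0.41, edgeR adjusted p = 0.0181). It had only 220 reads in all. Of 7 striated muscle markers, Myh2, Actn3, Mb and Myh6 were under the read minimum and 3 were tested, with sums of 10.3 to 11.8 TMM CPM in headers 4 to 6, 7.23 to 14.6 in headers 7 to 9 and 12.4 to 14.8 in headers 1 to 3, and their part in the *Cox6a2* values was not tested. The 5 others, named after their values were seen, were *Atp5g1*, a gene of the c-ring of ATP synthase (-0.75 ± 0.20, adjusted p = 0.0136), *Ndufb5* (-0.63 ± 0.17, 0.0154), *Ndufv2* (-0.62 ± 0.15, 0.0104), the assembly factor *Ndufaf5* (-0.59 ± 0.19, 0.0358) and *Cyc1*, cytochrome c1 of complex III (-0.59 ± 0.20, 0.0403). *Atp5g1* was at 183, 200 and 187 TMM CPM in headers 4 to 6, at 193, 333 and 184 in headers 7 to 9 and at 319, 325 and 317 in headers 1 to 3. For all 6 genes headers 4 to 6 lay below headers 1 to 3. Headers 7 and 9 lay near headers 4 to 6, and header 8 near headers 1 to 3.

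Complex II, whose 4 subunits are all nuclear, was lower in sum, at 1947 ± 39.8 TMM CPM in headers 4 to 6, 2103 ± 396 in headers 7 to 9 and 2525 ± 26.7 in headers 1 to 3 (SD, n = 3 each). *Sdha*, the flavoprotein that oxidises succinate, was at 499, 572 and 469 TMM CPM in headers 4 to 6, at 627, 672 and 608 in headers 7 to 9 and at 688, 678 and 685 in headers 1 to 3 (log2 fold change -0.41 ± 0.10, adjusted p = 0.0113). *Sdhc*, a membrane anchor, had -0.49 ± 0.16 (adjusted p = 0.0374). Both passed the test at adjusted p under 0.05 but were under the minimum fold of 0.58. *Sdhb*, the iron-sulphur subunit, had -0.38 ± 0.16 (adjusted p = 0.0782) and *Sdhd*, the other anchor and the most abundant of the 4 at 594 TMM CPM per kb, -0.28 ± 0.15 (0.15).

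Among the most abundant nuclear subunits of the other complexes, few passed. *Ndufb9* (-0.21 ± 0.22, adjusted p = 0.482) and *Ndufa1* (-0.17 ± 0.21, 0.533), accessory subunits of complex I, did not pass in headers 4 to 6 over headers 1 to 3, whereas *Ndufa8* (-0.52 ± 0.17, 0.0381) passed without the minimum fold. *Uqcrh*, the hinge protein of complex III, was at 633, 618 and 680 TMM CPM in headers 4 to 6, at 470, 783 and 466 in headers 7 to 9 and at 732, 755 and 745 in headers 1 to 3 (-0.21 ± 0.18, adjusted p = 0.395). *Uqcr10* (-0.04 ± 0.14, 0.829) and *Uqcr11* (0.05 ± 0.18, 0.853) had overlapping sets. *Atp5b*, the catalytic beta subunit of ATP synthase, was at 2445, 2478 and 2429 TMM CPM in headers 4 to 6, at 2278, 3215 and 2477 in headers 7 to 9 and at 3191, 3188 and 3140 in headers 1 to 3 (-0.37 ± 0.15, adjusted p = 0.0682). *Atp5a1*, the alpha subunit, had -0.46 ± 0.14 (0.026) and *Atp5g3*, of the c-ring, -0.36 ± 0.17 (0.111). Sets 4 to 6 and 1 to 3 did not overlap for any of these 3 ATP synthase genes, and only *Atp5a1* of them passed, without the minimum fold.

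Complex IV subunits come in isoforms that differ between tissues. The widely expressed forms dominated in every library, with *Cox4i2* making up 0.0742% to 0.163% of the per-kilobase reads of *Cox4i1* and *Cox4i2*, *Cox6a2* 0.0586% to 0.163% of the Cox6a pair and *Cox6b2* 0.0846% to 0.203% of the Cox6b pair. *Ndufa4l2* was 0.15% to 0.384% of the *Ndufa4* pair. *Cox4i2* had 208 reads over the 9 libraries, *Cox6b2* 389 and *Ndufa4l2* 194, so each of these shares rests on few reads per library. The exception was *Cox7a1*, known from heart and skeletal muscle, which made up 35.7%, 37.2% and 37.2% of the per-kilobase reads of *Cox7a1* and *Cox7a2* in headers 4 to 6, 25.2%, 32.2% and 24.9% in headers 7 to 9 and 28.2%, 32.7% and 28.0% in headers 1 to 3. Headers 4 to 6 were the 3 highest. *Cox7a1* itself was at 129, 135 and 146 TMM CPM in headers 4 to 6, at 64.3, 152 and 68.2 in headers 7 to 9 and at 119, 149 and 125 in headers 1 to 3 (log2 fold change in headers 4 to 6 over headers 1 to 3 of 0.06 ± 0.28, adjusted p = 0.88), while *Cox7a2* was at 411, 401 and 433, at 336, 564 and 363, and at 533, 543 and 566 in the same order (-0.40 ± 0.17, 0.0966). Neither gene passed, and the share was not tested.

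Of the other complex IV genes, only *Cox7a2l* passed, without the minimum fold. *Cox6a1* was at 690, 652 and 779 TMM CPM in headers 4 to 6, at 347, 1013 and 504 in headers 7 to 9 and at 962, 986 and 938 in headers 1 to 3 (-0.44 ± 0.31, adjusted p = 0.282). *Cox8a* was at 514, 434 and 575 in headers 4 to 6, at 238, 760 and 396 in headers 7 to 9 and at 684, 710 and 675 in headers 1 to 3 (-0.44 ± 0.33, 0.315). Headers 7 and 9 differed from each other in both genes, with header 7 the lower. *Cox5a* (-0.40 ± 0.23), *Cox5b* (-0.20 ± 0.26), *Cox6b1* (-0.11 ± 0.13) and *Cox7b* (-0.16 ± 0.10) had sets 4 to 6 and 1 to 3 that did not overlap and adjusted p of 0.195, 0.565, 0.527 and 0.236. *Cox4i1* (-0.08 ± 0.19), *Cox6c* (-0.08 ± 0.14) and *Cox6b2* (0.10 ± 0.24) overlapped. *Cox4i2* had 0.02 ± 0.26. *Cox7a2l* had -0.36 ± 0.10 (adjusted p = 0.0175). *Ndufa4*, first named for complex I and now placed in complex IV, was at 270, 269 and 284 TMM CPM in headers 4 to 6, at 246, 295 and 255 in headers 7 to 9 and at 269, 272 and 280 in headers 1 to 3 (0.00 ± 0.09, adjusted p = 0.978). *Ndufa4l2*, known to rise in hypoxia, was at 0.770, 0.823 and 0.778 in headers 4 to 6 and 0.728, 0.324 and 0.418 in headers 1 to 3 (0.72 ± 0.30, 0.0852).

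Between headers 7 to 9 and headers 1 to 3, edgeR called 0 members and 0% of all genes in either direction, with or without the minimum fold. The unadjusted p was under 0.05 for 36 members and 3940 genes, and DESeq2 called 3 members lower. DESeq2 called 398 of all genes, a share near that of the members, so its 3 calls are no result about the members. The edgeR count of 0 rested on header 8. For all 13 mitochondrial and 94 of 95 nuclear members, its level was nearer to the mean of headers 1 to 3 than to that of headers 7 and 9. This was not counted over all genes, and is no result about the members. Over 3090 genes, the SD of the log2 ratio of header 8 to headers 1 to 3 was 0.058 to 0.0949. To headers 9 and 7 it was 0.364 and 0.388. With all libraries the median log2 fold change was -0.89 for mitochondrial and -0.32 for nuclear members, and 0.01 over all genes. Without header 8, edgeR called 61 of 108 members lower and 0 higher, where 7.71% of all genes were lower and 11.4% higher. These were all 13 mitochondrial members, with a median log2 fold change of -1.55, and 48 of 95 nuclear members, whose median was -0.58 against 0.02 over all genes. The fit without header 8 has 2 libraries on that side, assumed to vary like the other sets. Headers 7 and 9 (SD of the log2 ratio 0.0864) and headers 1 to 3 (0.0545 to 0.0826) were closely alike. Adjusted p in this fit measure the spread between such libraries, which may be smaller than that between mice. Header 8 was left out after its values were known, among the planned omissions of each library, so these calls describe headers 7 and 9.

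In that fit the nuclear members called lower were 24 of 36 in complex I, 0 of 4 in complex II, 3 of 9 in complex III, 9 of 17 in complex IV, 6 of 17 in complex V and 6 of 12 among assembly factors. In complex IV, *Cox6a2* (-2.22 ± 0.26, adjusted p = 3.29e-05) and *Cox6a1* (-1.18 ± 0.13, 2.54e-05) had the largest changes, followed by *Cox8a* (-1.12 ± 0.17, 0.000268) and *Cox7a1* (-0.98 ± 0.09, 7.55e-06). *Sdhb* (-0.56 ± 0.05) and *Sdhc* (-0.56 ± 0.05) stayed just under the minimum fold. Among the mitochondrial members, *mt-Nd3* changed most (-2.38 ± 0.26, adjusted p = 2.2e-05) and *mt-Co1* least (-1.22 ± 0.08, 7.69e-07). For 74 of 95 nuclear members headers 7 and 9 were both below each of the other 7 libraries. The share of all genes with this pattern was not counted, so the 74 are no result about the nuclear members. By the calls of that fit, members of both genomes were lower in headers 7 and 9. Also without header 8, 10 of 95 nuclear members were called higher in headers 4 to 6 than in headers 7 and 9. This was near the 9.09% of all genes called higher, and so is no result about the nuclear members.

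**Figure D5:**
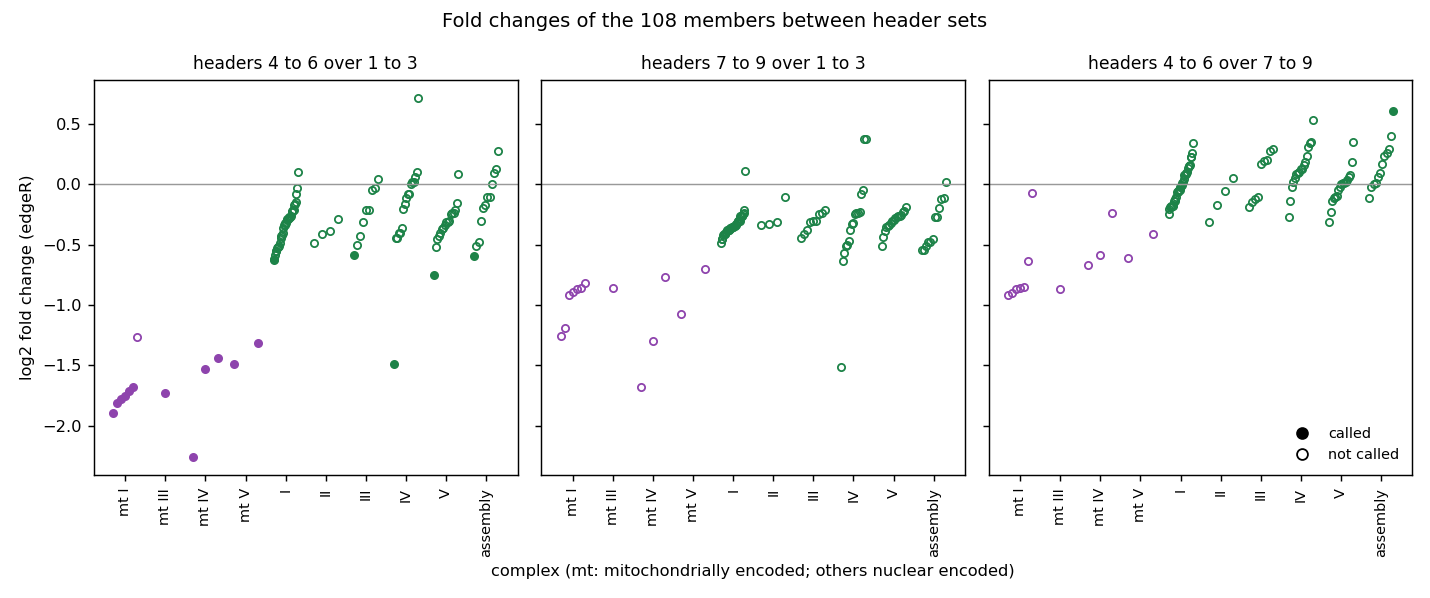
Log2 fold changes (edgeR, all 9 libraries) of the 108 members by complex in the 3 comparisons of header sets, with mitochondrially encoded members in purple and nuclear encoded members in green; filled points were called (adjusted p under 0.05 and log2 fold change beyond 0.58). In headers 4 to 6 over 1 to 3 the mitochondrial points lie between -2.26 and -1.26, in headers 7 to 9 over 1 to 3 no point is filled, and in headers 4 to 6 over 7 to 9 only *Sdhaf1* is.

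Between headers 4 to 6 and headers 7 to 9, 1 member was called, higher in headers 4 to 6, where 6.81% of all genes were called higher and 4.53% lower. It was *Sdhaf1*, an assembly factor of complex II, at 15.1, 13.1 and 18.1 TMM CPM in headers 4 to 6, at 8.01, 12.3 and 10.2 in headers 7 to 9 and at 13.9, 12.2 and 16.4 in headers 1 to 3 (log2 fold change in headers 4 to 6 over headers 7 to 9 of 0.61 ± 0.18, adjusted p = 0.0315). It shares 69.0% of its windows with other genes. The count was 0 without header 1, 4 or 6 and with only these 6 libraries, and without header 7 or 9 it was 5 or 4, all mitochondrial and lower in headers 4 to 6. Of all genes, 1593, 1322, 1258 and 1388 were called in the fits with 0 members. Without header 7 or 9, 1585 or 1569 of all genes were called. Without the minimum fold 3 assembly factors were higher, the others being *Sdhaf2* (0.40 ± 0.08, adjusted p = 0.00629) and *Ndufaf4* (0.29 ± 0.09, 0.0464), and 0 members were lower, where 12% of all genes were higher and 11.2% lower. Unadjusted p-values were under 0.05 for 12 members. *Sdhaf2* also passed in headers 4 to 6 over headers 1 to 3 (0.28 ± 0.08, adjusted p = 0.0236), the only member higher there. The median log2 fold change was -0.67 for mitochondrial and 0.02 for nuclear members. Without header 8 it was 0.04 for mitochondrial and 0.26 for nuclear members, and 11 members were called, all higher in headers 4 to 6, with 9.09% of all genes higher and 6.51% lower. In that fit *mt-Nd1*, *mt-Nd2*, *mt-Nd4*, *mt-Nd5*, *mt-Cytb* and *mt-Co1* were lower in headers 4 to 6, with log2 fold changes of -0.36 to -0.22 and adjusted p of 0.00404 to 0.0319, all under the minimum fold. *mt-Nd3* (1.12 ± 0.26, adjusted p = 0.00414) and *mt-Atp6* (0.54 ± 0.20, 0.0444), with nearly all windows shared, were higher, and the other 5 mitochondrial members did not pass. The ratio of mitochondrial to nuclear reads was 1.03 to 1.15 in headers 4 to 6, against 1.51 in each of headers 7 and 9.

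The call count for headers 4 to 6 over headers 1 to 3 also changed when single libraries were left out. It was 18 with all 9, 9 without the library labelled vehicle 2 (header 4), 11 without that labelled 1,25D3 and ZK 1 (header 3) and 11 without that labelled 1,25D3 and ZK 2 (header 6). Of these, 8, 9 and 9 were mitochondrial. The same fits called 3067, 2445, 2564 and 2368 of all genes, so calls fell over all genes as well. Whether the members depended more on single libraries was not tested. Without header 8 the member count was 20, of which 13 were mitochondrial, with 8.98% of all genes lower and 14.1% higher. The mitochondrial median stayed between -1.77 and -1.65 when any library was left out.

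Markers of several other cell types moved with the header sets. Pancreatic acinar markers (13 of 14 tested) summed to 42335, 8422 and 40670 TMM CPM in headers 4 to 6, to 3762, 99.7 and 3697 in headers 7 to 9 and to 91.8, 105 and 101 in headers 1 to 3. Brunner gland and stomach markers (5 of 5) summed to 6137 to 7521 in headers 4 to 6, 4.10 to 123 in headers 7 to 9 and 2.95 to 3.76 in headers 1 to 3. Fibroblast markers (6 of 6) summed to 193 to 204 in headers 4 to 6, 112 to 231 in headers 7 to 9 and 107 to 113 in headers 1 to 3, and erythroid markers (5 of 5) to 44.4 to 47.8, 21.4 to 138 and 139 to 146 in the same order. In all 4 lists header 8 lay with headers 1 to 3. Immune markers (6 of 6) summed to 2830 to 3288 TMM CPM in headers 4 to 6, 4347 to 4890 in headers 7 to 9 and 4925 to 5048 in headers 1 to 3, and crypt and cycling markers (7 of 7) to 261 to 293, 379 to 617 and 388 to 393 in the same order. Smooth muscle sums (1264 to 1296 in headers 4 to 6, 1119 to 1659 in headers 7 to 9 and 1544 to 1644 in headers 1 to 3) also differed between headers 4 to 6 and headers 1 to 3, as did those of endothelium, brown adipocyte and duodenal identity markers. Goblet sums (5893 to 6844 in headers 4 to 6, 5411 to 6841 in headers 7 to 9 and 6481 to 6801 in headers 1 to 3), tuft sums and Paneth sums overlapped between headers 4 to 6 and headers 1 to 3. Header 5, with the lowest acinar sum of its set, had a mitochondrial sum of 31305 TMM CPM, beside 28031 and 29978 in headers 4 and 6. Headers 7 and 9 had lower acinar sums than header 5 and mitochondrial sums of 34653 and 36197 TMM CPM. With TMM computed without mitochondrial genes and acinar markers, the mitochondrial median in headers 4 to 6 over headers 1 to 3 was again -1.71. That setting changes only the scaling of the libraries and does not measure what acinar RNA adds to them. The part of these cell types in the members' levels was not tested. Enterocyte markers were also lower, with 5 of 12 called lower and 1 higher in headers 4 to 6 over headers 1 to 3 and a median log2 fold change of -0.45.

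By treatment label no member was called, as none was among all genes (0% in each of the 3 comparisons). Between libraries labelled 1,25D3 and vehicle, 1 member had an unadjusted p under 0.05 (135 of all genes), and between 1,25D3 and ZK and vehicle, and between 1,25D3 and ZK and 1,25D3, 0 members did (24 and 147 genes). The mitochondrial median was 0.38 for 1,25D3 over vehicle, 0.07 for 1,25D3 and ZK over vehicle and -0.32 for 1,25D3 and ZK over 1,25D3, and the nuclear median was 0.23, 0.06 and -0.16. The 3 libraries of a treatment come from the 3 header sets, so the differences between sets enter the spread within each treatment. These comparisons share libraries in pairs.

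Genes around the respiratory chain were read from lists, with counts for headers 4 to 6 over headers 1 to 3, where 8.25% of all genes were called lower and 12.2% higher. Regulators of mitochondrial biogenesis held 3 called lower of 13 tested and 0 higher. *Ppargc1a*, a coactivator that drives mitochondrial genes, was at 15.1, 18.2 and 14.1 TMM CPM in headers 4 to 6, at 29.2, 32.3 and 27.7 in headers 7 to 9 and at 34.6, 34.6 and 34.7 in headers 1 to 3 (log2 fold change -1.13 ± 0.10, edgeR adjusted p = 4.55e-05). It was also lower in headers 4 to 6 than in headers 7 to 9 (-0.91 ± 0.10, adjusted p = 0.000204). *Ppara* (-0.81 ± 0.11, 0.000602), a fatty acid receptor, and *Esrrg* (-0.73 ± 0.10, 0.000421), an orphan receptor, fell too. For *Ppargc1a* headers 7 and 9 were nearer to headers 1 to 3 than to headers 4 to 6. The part of these regulators in the members' levels was not tested.

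The list of mitochondrial DNA maintenance and transcription (19 tested) held 4 higher and 1 lower. *Mterf1a* (1.39 ± 0.30, adjusted p = 0.00628, at most 0.898 TMM CPM), *Rrm2b* (0.67 ± 0.12, 0.00251) and *Top3a* (0.65 ± 0.14, 0.00635) had the largest changes and rose. For mitochondrial RNA processing and stability (20 tested), 0 were called, and its most abundant genes *Hsd17b10* (-0.55 ± 0.10, 0.00281) and *Tbrg4* (-0.44 ± 0.14, 0.0369) were among 8 lower without the minimum fold. The mitochondrial ribosome, of nuclear encoded proteins, had 4 lower and 0 higher of 77, a smaller share than that of all genes, with *Mrpl42* (-0.79 ± 0.15, 0.00256), *Mrpl4* (-0.66 ± 0.19, 0.0194) and *Mrpl35* (-0.66 ± 0.12, 0.00296) the largest and a median of -0.20.

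Of 34 assembly factors outside the symbol rule, 5 were lower and 1 higher. *Cox20* (-0.86 ± 0.17, 0.00351) and *Sco2* (-0.77 ± 0.17, 0.00703), needed to build complex IV, and *Lyrm7* (-0.76 ± 0.15, 0.00332), needed for complex III, fell. Electron carriers and other entry points had 3 lower of 10, namely *Sqor* (-0.81 ± 0.17, 0.00556), *Chdh* (-0.72 ± 0.11, 0.00104) and *Gpd2* (-0.71 ± 0.12, 0.00146). These are enzymes that feed electrons from sulphide, choline and glycerol 3-phosphate to ubiquinone. The citric acid cycle had 1 of 14 lower, *Idh3a* (-0.88 ± 0.15, 0.00172), and a median of -0.33. Carriers of adenine nucleotides, phosphate and protons had 1 of 6 lower, the carrier *Ucp2*, at 885, 910 and 915 TMM CPM in headers 4 to 6, at 1478, 2212 and 1416 in headers 7 to 9 and at 2103, 2176 and 2089 in headers 1 to 3 (-1.23 ± 0.17, 0.000539). The outer membrane, import and cristae list had 2 of 17 lower, *Vdac3* (-0.67 ± 0.14, 0.00471) and *Apoo* (-0.62 ± 0.09, 0.000671). Counts of 1 to 5 genes in a list say little beside the shares of all genes, and no list was tested as a whole.

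The nuclear members are spread over 19 chromosomes, with at most 9 on any of them, so position does not group them. Promoter windows from 250 bases before to 50 after the start, from RefSeq (GRCm38.p6), were matched for 78 of the 95, as 83 windows. Motifs of factors known to control nuclear respiratory genes were searched on both strands. GCGCATGC, of NRF1, was in the windows of 15.4% of these 78 genes, against 5.44% of 11165 genes that were tested and had a window. CCGGAAG, of GABPA, was in 26.9% against 18.5%, and AAGATGGC, of YY1, in 14.1% against 4.85%. TGACGTCA, of CREB, was in 5.13% against 3.39%, and TCAAGGTCA, of ESRRA, in 2.56% against 0.322%, or 2 genes. A match is a run of letters and not a bound site. Stretches of 100 bases directly before the start are shown for 5 members as examples of such matches, with motif letters in capitals. They are those of *Atp5k* (chr5:108434400-108434499, minus strand), *Ndufa6* (chr15:82354292-82354391, minus strand), *Ndufa11* (chr17:56717662-56717761, plus strand) and *Sdhb* (chr4:140961171-140961270, plus strand), each with the NRF1 letters, and *Atp5j* (chr16:84834977-84835076, minus strand), with those of YY1 and then GABPA.
Atp5k: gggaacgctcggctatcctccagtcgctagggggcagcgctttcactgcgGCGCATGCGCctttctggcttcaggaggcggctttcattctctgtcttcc
Ndufa6: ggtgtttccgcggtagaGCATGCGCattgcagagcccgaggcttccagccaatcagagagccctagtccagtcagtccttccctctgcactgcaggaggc
Ndufa11: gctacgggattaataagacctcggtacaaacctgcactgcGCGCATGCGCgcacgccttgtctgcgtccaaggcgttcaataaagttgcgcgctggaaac
Sdhb: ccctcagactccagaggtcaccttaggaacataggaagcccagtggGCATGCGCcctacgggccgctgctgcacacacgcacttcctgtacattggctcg
Atp5j: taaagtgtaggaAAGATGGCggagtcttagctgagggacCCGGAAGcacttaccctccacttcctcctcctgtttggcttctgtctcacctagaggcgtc
In *Atp5k* and *Ndufa11* the capitals run over 10 bases because the motif overlaps its own reverse complement. These members had log2 fold changes in headers 4 to 6 over headers 1 to 3 of -0.15 (*Atp5k*), -0.58 (*Ndufa6*), -0.34 (*Ndufa11*), -0.38 (*Sdhb*) and -0.41 (*Atp5j*), and none was called. The mitochondrial members have no such window.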

How the data were processed

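RNA of mouse duodenum was sequenced as 50-base single reads from a stranded kit for polyadenylated RNA. For base calling the authors used bcl2fastq 2.17.1.14, and adapter dimers were taken out. Reads were aligned to mm10 with Tophat and Bowtie2, unique alignments were kept, and HTSeq gave reads per gene. Deposited values are these counts as whole numbers, without normalization, of 48709 Ensembl genes. How strand was handled in counting, and which annotation release was used, is not given in the sources used here. The digit in each sample description gave the column of that sample.

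Symbols, biotypes and coordinates came from GENCODE M21 (GRCm38, which is mm10), with 48349 identifiers matched. The 15002 genes with more than 100 reads in all were scaled by TMM, and edgeR 4.0.16 in R 4.3.3 gave quasi-likelihood tests over all 9 libraries, with a mean for each header set or treatment label and Benjamini-Hochberg adjustment over all genes. Calls needed an adjusted p under 0.05 and a log2 fold change beyond 0.58. Each SE was had by dividing the absolute log2 fold change by the root of the F statistic. Alternatives were DESeq2 1.42.0, its size factors, TMM without mitochondrial and acinar genes, other read filters, no minimum fold, only the 6 libraries compared, the treatment label as a covariate, the replicate number as a block, and omission of each library in turn. The fit was tested on simulated data. Ratios and medians over members are descriptions with no test.

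Members, lists, motifs and tests were chosen with earlier results of these data known. Named genes were the mitochondrial members, *Sdha* to *Sdhd*, the 3 nuclear members of highest level per kb in each of complexes I, III, IV and V, the 5 called members of largest change in each direction and comparison of header sets with all libraries, the complex IV isoforms, and up to 3 called genes of each list, or its 2 most abundant. The other nuclear members called lower, the assembly factors higher without the minimum fold, the tRNAs and ribosomal RNAs were named after their values were seen, and promoter stretches were chosen for their motif matches. Depth was 22561400 to 41207455 counts per library.

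As a check of the label numbers, the deviations of each library from the mean of its treatment were correlated within pairs of equal number. For 1,25D3 and ZK with vehicle, r was 0.888, 0.924 and 0.841, so libraries of equal number were alike in these labels. Any difference between header sets gives such an r, so it cannot tell a pairing of mice from another grouping. The labels do not say what a number marks. In the other 2 comparisons the pair numbered 3 did not correlate (-0.026 and -0.013).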

Additional observations from a re-analysis of the deposited data

How the results depend on the processing

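With edgeR, 18 members were called in headers 4 to 6 over headers 1 to 3, and 35 with no minimum fold. These fits called 3067 and 5751 of all genes. In headers 7 to 9 over headers 1 to 3, where 0 were called, DESeq2 and no filter on low counts gave 3 each, with 398 and 467 of all genes called. In headers 4 to 6 over headers 7 to 9, where 1 was called, DESeq2 gave 5 (4 of them lower), no filter 6 (5 of them lower), no minimum fold 3 and only the 6 libraries compared 0. Of all genes, 1770, 1959, 3475 and 1388 were called in these alternatives, and 1702 in the main fit. Leaving out each library gave 9 to 20, 0 to 61 and 0 to 11 members in these 3 comparisons, and log2 ratio differences of -1.38 to -1.26, -0.82 to -0.50 and -0.80 to -0.49. Calls among all genes in the same fits ranged over 2368 to 3441, 0 to 2850 and 1258 to 2320. The extremes of 61 and 11 were without header 8, and leaving out header 7 or 9 gave 5 or 4 members, all lower, in the last comparison. With medians in place of sums, the ratio difference of headers 4 to 6 against headers 1 to 3 was -0.92 in place of -1.31. By treatment label, 0 members were called under every alternative run, and with the number as replicate block the fit gave 0 in each comparison as well, so the block changed no call. The *mt-Co2*, *mt-Co3*, *mt-Atp6*, *mt-Nd3* and *mt-Nd4l* levels are limited by the reads kept.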

Other observations

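Over the 3090 genes with more than 1000 reads in every library, the closest pairs of libraries were headers 1 and 3, labelled vehicle 1 and 1,25D3 and ZK 1 (SD of the log2 ratio 0.0545), and headers 2 and 8, both labelled 1,25D3, with numbers 1 and 3 (0.058). The share of *Cox7a1* in the Cox7a pair followed these pairs, with 32.7% and 32.2% in headers 2 and 8 and 28.2% and 28.0% in headers 1 and 3, as did the level of *mt-Co1*, with 27843 and 27759 TMM CPM in headers 2 and 8 and 31761 and 32852 in headers 1 and 3. The summed mitochondrial members of complex V did not, at 1229 and 1275 TMM CPM in headers 2 and 8 and 1048 and 1333 in headers 1 and 3. How many members followed these pairs was not counted. Further mitochondrial transcripts with enough reads were tRNAs. *mt-Tl1*, with 1286 reads in all, was at 1.92, 2.62 and 1.65 TMM CPM in headers 4 to 6, at 2.77, 7.32 and 3.02 in headers 7 to 9 and at 9.16, 7.56 and 8.64 in headers 1 to 3 (log2 fold change in headers 4 to 6 over headers 1 to 3 of -2.03 ± 0.34, edgeR adjusted p = 0.00166). *mt-Tw* (-1.18 ± 0.33, 0.018), *mt-Ti* (-1.08 ± 0.27, 0.0109) and *mt-Tm* (-0.85 ± 0.27, 0.0313) were lower as well.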
